A study of Mus musculus with 16 samples.

Results

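The tRNA pool of mouse heart was compared with that of cultured mouse embryonic fibroblasts (MEFs). All 16 libraries of the series entered this comparison: 8 hearts and 8 MEF libraries. The series asks what follows when a disease-causing change in the mitochondrial tRNA-Ala gene is corrected with a base editor. The hearts came from the m.5024T mouse model, per the labels' protocols, 4 from mice given AAV9-GFP (mice 5, 6, 14 and 19) and 4 from mice given AAV9-DdCBE (mice 17, 18, 25 and 26). AAV9 is a viral vector that reaches heart muscle well, GFP is a fluorescent protein used as a control cargo, and a DdCBE is a protein editor that changes cytosine in mitochondrial DNA. All 8 hearts therefore share a vector treatment that the fibroblasts do not. The MEF libraries were 2 cell passages each of 4 lines, Ctrl_1, Cl_1, Cl_2 and Cl_3. The labels do not explain the names of the lines, their genotype, the promoter or the dose of the vector, the age of the animals, or the X that hearts carry (2X, 3X, 5X or 10X).

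Transfer RNAs carry amino acids to the ribosome and read codons through a 3-letter anticodon. Nuclear genes supply the cytosolic ribosomes. Many near-identical nuclear genes share an anticodon, and such copies are called isodecoders. The mitochondrial genome encodes its own small set, with a single tRNA for most amino acids, which serves only the few respiratory chain subunits made inside mitochondria. Heart muscle is dense in mitochondria; fibroblasts are connective tissue cells that grow readily in culture. Names give the amino acid, the anticodon in DNA letters and a running number, so tRNA-Leu-CAA-1 is 1 isodecoder of the leucine tRNA that reads the codon UUG.

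Library totals were 1540287 to 3037178 counts in the hearts and 1473330 to 4375975 in the MEF libraries. Mitochondrial tRNA counts were 645035 to 1819052 per heart and 39719 to 149158 per MEF library. Mitochondrial shares thus rest on fewer counts in the MEF libraries. Each tissue was counted in a table of its own, and tissue, culture, vector treatment and table cannot be told apart. In bulk RNA, fewer cells of a type and less RNA per cell cannot be told apart either. Every value below is a share: a mitochondrial tRNA as a percent of mitochondrial tRNA counts, a nuclear tRNA as a percent of nuclear tRNA counts. Shares sum to 100%, so a rise of an abundant tRNA lowers the rest. The tables hold tRNAs only, so the labelled tissues were not checked against marker mRNAs. Some hearts stood apart from the rest. Mice 17 and 18, both labelled 10X and both given AAV9-DdCBE, had far more counts of many rare isodecoders than the other 6 hearts. Mice 14, 25 and 18, with 1540287, 1646074 and 2070246 counts the 3 shallowest heart libraries, had low shares of several tRNAs. Several results that rest on these hearts, though not all, are given with and without them. The statistical units were 8 hearts and 4 lines, with the passages of a line summed. Log2 differences are heart minus MEF from edgeR's quasi-likelihood test, and "called" means an adjusted p under 0.05.

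The clearest contrast was the weight of the mitochondrial set as a whole. Mitochondrial tRNAs took 37.4% (lowest), 40.9% (median) and 59.9% (highest) of all tRNA counts in the hearts, and 3.55% in Ctrl_1, 2.49% in Cl_1, 2.51% in Cl_2 and 2.50% in Cl_3. The groups did not overlap. Mouse 17 lay far above the other hearts, and Ctrl_1 above the other lines. The means were 43.0% ± 7.32 (SD, n = 8) and 2.76% ± 0.525 (SD, n = 4), a difference of 40.2 percentage points (exact two-sided permutation test over 495 splits, p = 0.00404). Without mice 17 and 18 the difference was 37.1 points (exact two-sided permutation test, p = 0.00952). AAV9-GFP hearts and Ctrl_1 alone differed by 36.7 points (exact permutation test, p = 0.133, the smallest p that 4 against 2 libraries can give).

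Within the mitochondrial pool, 6 of the 22 tRNAs were higher in heart and 7 were lower, so 59.1% were called, and 9 did not pass the test. The higher ones were Ser-GCT, Leu-TAG, Gly, Thr, Trp and Asp, and the lower ones were Gln, Glu, Tyr, Ser-TGA, Val, Leu-TAA and His. Under TMM, a scaling on the typical tRNA in place of the total, 6 were higher and 4 lower: Val, Leu-TAA and His no longer passed. The median log2 difference of the 22 was -0.16, so a tRNA at 0 on this scale already stood slightly above the typical one.

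Mitochondrial tRNA-Ser-GCT, an unusual tRNA without a D arm that reads AGU and AGC codons, showed the widest gap. It took 0.318% (lowest), 0.357% (median) and 0.414% (highest) of mitochondrial counts in the hearts, against 0.0920% in Ctrl_1, 0.0832% in Cl_1, 0.0477% in Cl_2 and 0.0648% in Cl_3. All hearts lay above all lines. The log2 difference was 2.31 (SE 0.20, edgeR adjusted p = 7.27e-08), a 4.97-fold higher share. By mean share it was the rarest mitochondrial tRNA in both tissues. With 39719 to 149158 mitochondrial counts per MEF library, its shares in the lines rest on few counts.

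Mitochondrial tRNA-Leu-TAG, which reads the CUN leucine codons, took 5.70% to 8.03% in the hearts (median 7.07%) and 3.19%, 2.30%, 2.85% and 2.21% in Ctrl_1, Cl_1, Cl_2 and Cl_3. The groups did not overlap, and the log2 difference was 1.41 (SE 0.12, edgeR adjusted p = 7.27e-08). The genes of tRNA-His, tRNA-Ser-GCT and tRNA-Leu-TAG follow each other on the mitochondrial genome. The first of these moved the other way, with 4.46% to 5.94% in the hearts and 5.52% to 6.66% in the lines (log2 difference -0.27, SE 0.09, edgeR adjusted p = 0.0195). The His call was lost without any 1 of Ctrl_1, Cl_1 or Cl_2 (adjusted p = 0.0505, 0.0633 and 0.0616), and without the 10X hearts (edgeR adjusted p = 0.0593). Neighbours in this cluster thus did not share a direction in these counts.

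Mitochondrial tRNA-Gly rose to a median of 5.32% in the hearts (4.87% to 5.65%) from 2.64%, 2.45%, 2.43% and 1.88% in the lines (log2 difference 1.18, SE 0.10, edgeR adjusted p = 7.27e-08). Mitochondrial tRNA-Thr stood at 3.31% to 4.43% against 1.81% to 2.32% (0.84, SE 0.12, edgeR adjusted p = 1.82e-05). Mitochondrial tRNA-Trp, whose anticodon also reads the mitochondrial UGA codon, stood at 8.12% to 13.5% against 6.07% to 7.56% (0.64, SE 0.12, edgeR adjusted p = 2.68e-04). None of these 3 overlapped between hearts and lines. Mitochondrial tRNA-Asp, at 5.67% to 7.43% against 3.83% to 5.84%, overlapped, and its call was lost without Cl_1 (log2 difference 0.25 in place of 0.35, edgeR adjusted p = 0.0633). For AAV9-GFP against Ctrl_1 it was at 0.08 (edgeR adjusted p = 0.635).

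The tRNAs that were lower in heart came largely from the 8 encoded on the opposite strand to most mitochondrial tRNAs (Ala, Asn, Cys, Tyr, Gln, Glu, Pro and Ser-TGA). Of these 8, 4 were lower and 0 higher, with a median log2 difference of -0.45. Of the other 14, 6 were higher and 3 lower, with a median of 0.13. The summed share of the 8 was 17.7% to 20.2% in the hearts and 28.4%, 28.2% and 32.7% in Cl_1, Cl_2 and Cl_3, but 20.8% in Ctrl_1. The 3 Cl lines thus stood well above the hearts and Ctrl_1 close to them. Against Ctrl_1 alone, the AAV9-GFP hearts gave a median of 0.09 for the 8 and 0.04 for the other 14. The summed share was nevertheless lower in each of the 4 AAV9-GFP hearts (20.2%, 20.1%, 18.0% and 19.3%) than in Ctrl_1, and of the 8, Tyr and Ala were called lower and Asn higher in that contrast.

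Mitochondrial tRNA-Tyr and tRNA-Gln, both of that strand, were lower in every heart than in every line. Mitochondrial tRNA-Tyr took 3.78% to 4.70% in the hearts (median 3.99%) and 6.16%, 6.47%, 7.65% and 7.32% in Ctrl_1, Cl_1, Cl_2 and Cl_3 (log2 difference -0.75, SE 0.09, edgeR adjusted p = 4.31e-06). The AAV9-GFP hearts against Ctrl_1 gave -0.61 (edgeR adjusted p = 0.00413). Mitochondrial tRNA-Gln took 0.575% to 1.33% in the hearts and 1.48%, 2.37%, 2.37% and 2.72% in the lines, without overlap (-1.26, SE 0.26, edgeR adjusted p = 6.35e-04). Against Ctrl_1 alone it was -0.47 (edgeR adjusted p = 0.261).

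Mitochondrial tRNA-Glu took 1.33% to 3.44% in the hearts, and 2.49% in Ctrl_1 against 5.89%, 4.39% and 5.74% in the Cl lines. Ctrl_1 lay within the range of the hearts. The log2 difference was -1.06 (SE 0.29, edgeR adjusted p = 0.00518), but 0.16 for AAV9-GFP against Ctrl_1 (edgeR adjusted p = 0.767). Mitochondrial tRNA-Ser-TGA had the same split, at -0.48 (SE 0.12, edgeR adjusted p = 0.00246) and 0.02 against Ctrl_1 alone (edgeR adjusted p = 0.921). Mitochondrial tRNA-Ala, whose gene the series is about, took 0.202% to 1.10% in the hearts and 1.37%, 0.554%, 1.02% and 0.480% in the lines, and its difference of -0.43 (SE 0.41) was not called (edgeR adjusted p = 0.380). For AAV9-GFP against Ctrl_1 the difference of tRNA-Ala was -1.80 (edgeR adjusted p = 0.00413). The AAV9-GFP hearts took 0.428%, 0.539%, 0.202% and 0.409%, and the AAV9-DdCBE hearts 1.05%, 1.10%, 0.921% and 0.450%. The treatments were not compared here.

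**Figure D1:**
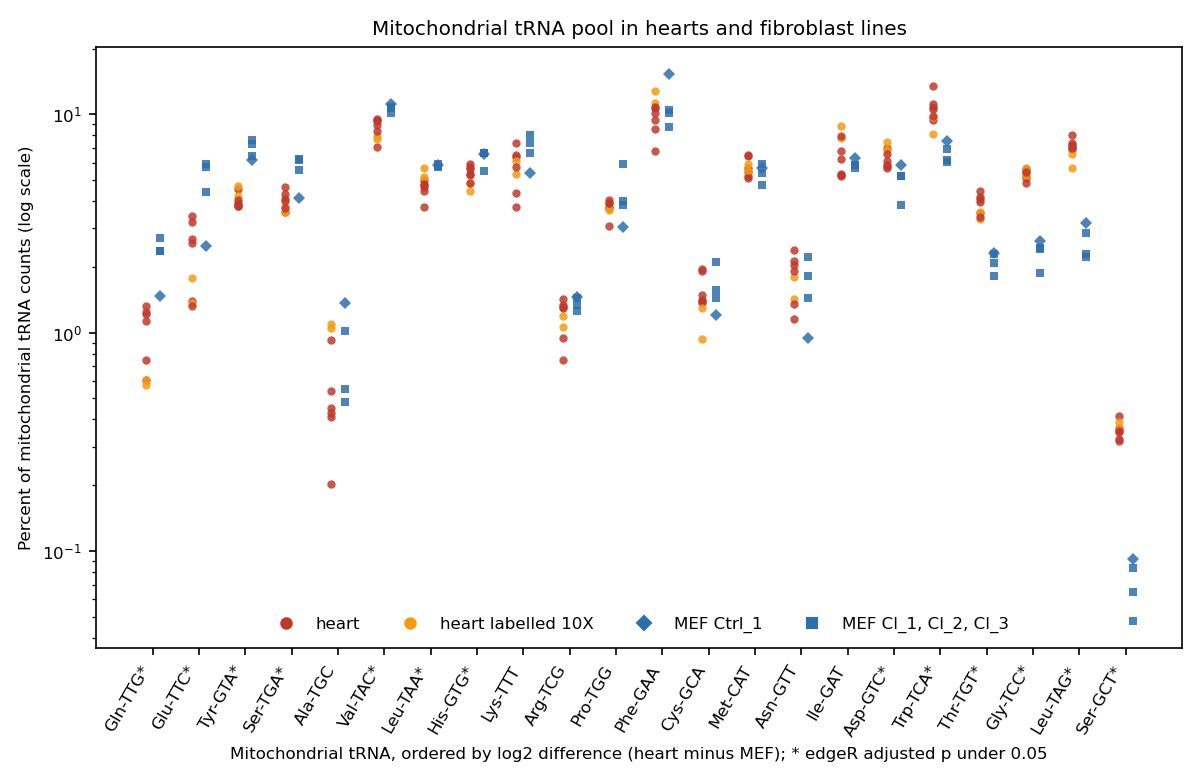
Share of mitochondrial tRNA counts (percent, log scale) of each of the 22 mitochondrial tRNAs in 8 hearts (circles, the 10X hearts in orange) and 4 MEF lines (diamonds for Ctrl_1, squares for the Cl lines), ordered by the log2 difference. Ser-GCT at the right is at 0.318% or more in every heart and at 0.0920% or less in every line, and the Ctrl_1 diamonds of Glu and Ser-TGA lie among the hearts.

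In the nuclear pool, leucine and glutamate tRNAs and the initiator and selenocysteine tRNAs weighed more in heart, and valine, arginine and cysteine tRNAs less. Of 22 amino acid families tested, 7 were higher and 8 were lower in heart, so 68.2% were called. None of the called families differed by more than 2-fold. The rare suppressor family was not tested.

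The selenocysteine tRNA, which inserts selenocysteine at recoded UGA codons, took 0.204% to 0.2497% of nuclear counts in the hearts (median 0.211%) and 0.0931%, 0.116%, 0.125% and 0.154% in Ctrl_1, Cl_1, Cl_2 and Cl_3. Hearts and lines did not overlap, and the log2 difference was 0.83 (SE 0.11, edgeR adjusted p = 3.46e-05). Leucine tRNAs took 6.13% to 7.11% in the hearts (median 6.86%) and 3.81% to 4.05% in the lines, also without overlap (0.77, SE 0.05, edgeR adjusted p = 1.69e-08). The initiator methionine tRNA, which starts every cytosolic protein, took 2.42% to 3.07% in the hearts and 1.88% to 2.06% in the lines (0.49, SE 0.06, edgeR adjusted p = 2.39e-05). The elongator methionine tRNA moved the other way, with 1.88% to 2.13% in the hearts and 2.18%, 2.49%, 2.45% and 2.75% in the lines (-0.26, SE 0.06, edgeR adjusted p = 0.00163). Ctrl_1 was the line nearest the hearts, and AAV9-GFP against Ctrl_1 gave -0.05 (edgeR adjusted p = 0.207).

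Glutamate tRNAs were higher in heart by 0.56 (SE 0.12, edgeR adjusted p = 0.00163), with overlap through mouse 14: the hearts ran from 4.33% to 7.24% and the lines from 4.01% to 4.41%. Lysine tRNAs took 9.34% to 12.01% in the hearts and 9.95%, 7.68%, 7.80% and 8.69% in the lines (0.34, SE 0.07, edgeR adjusted p = 0.00163). Threonine (0.34, SE 0.08) and phenylalanine tRNAs (0.18, SE 0.04) were also higher and did not overlap between hearts and lines. For AAV9-GFP against Ctrl_1 none of these 4 families was called: lysine was at 0.17 and threonine at 0.37 (edgeR adjusted p = 0.0587 each), phenylalanine at 0.10 (0.0608) and glutamate at 0.54 (0.0806).

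Valine tRNAs were the family with the lowest value in heart relative to MEF. They took 2.61% to 3.74% in the hearts (median 3.52%) and 4.95%, 4.67%, 4.92% and 4.94% in the lines, without overlap (-0.56, SE 0.10, edgeR adjusted p = 4.82e-04). Arginine tRNAs took 7.66% to 9.34% against 10.2% to 11.2% (-0.38, SE 0.05, edgeR adjusted p = 2.39e-05), and cysteine tRNAs 2.03% to 2.91% against 3.08% to 3.57% (-0.36, SE 0.10, edgeR adjusted p = 0.00386). The other 4 lower families besides elongator methionine were tryptophan (-0.29), proline (-0.24), tyrosine (-0.24) and glycine (-0.15). The tyrosine and glycine calls were lost under TMM (-0.18 and -0.09, edgeR adjusted p = 0.0845 each). The tyrosine call was also lost without the line Cl_3 or Ctrl_1 (edgeR adjusted p = 0.0762 and 0.0590), and the tryptophan value was 0.02 for AAV9-GFP against Ctrl_1 (edgeR adjusted p = 0.864).

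Alanine, aspartate, glutamine, serine, histidine, asparagine and isoleucine tRNAs were not called as families. Alanine lay nearest the threshold, at -0.22 (SE 0.10, edgeR adjusted p = 0.0515), and passed without mouse 18 or mouse 25 (edgeR adjusted p = 0.0181 and 0.0152). It also passed without the 10X hearts (-0.27, edgeR adjusted p = 0.0239). For AAV9-GFP against Ctrl_1, alanine (-0.39, edgeR adjusted p = 0.0414) and histidine (-0.42, edgeR adjusted p = 0.0198) were called lower. The others of these uncalled families were not called there. Without mouse 14, glutamine (edgeR adjusted p = 0.0204) and serine (0.0427, and likewise without mouse 17) also passed, both lower in heart. Sorted by the structural class of the synthetase that charges them, class I families had 2 higher and 6 lower of 10 (median -0.25) and class II families 3 higher and 2 lower of 10 (median -0.07). The tRNAs with a long variable arm (Leu, Ser and SeC) summed to 11.9% to 13.0% in hearts and 9.63% to 9.95% in lines. Of these 3 families 2 were higher, against 7 of all 22. The rise lay in leucine, at 2.78 points of mean share, with 0.0955 for selenocysteine and -0.333 for serine. The median over all 22 families was -0.10.

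Families hid opposite movements of their anticodons. Of 48 nuclear anticodons tested, 15 were higher and 19 lower in heart (70.8% called), and 27 of the 34 did not overlap between hearts and lines. The leucine rise came from 4 of its 5 anticodons. Leu-CAA took 0.706% to 1.16% in the hearts (median 1.11%) and 0.313%, 0.429%, 0.377% and 0.349% in the lines (log2 difference 1.45, SE 0.15, edgeR adjusted p = 6.27e-07). Leu-TAG (1.05, SE 0.08), Leu-CAG (0.94, SE 0.12) and Leu-AAG (0.83, SE 0.07) were higher as well, each without overlap. Leu-TAA, which reads UUA, was lower: 0.716% to 0.769% in the hearts against 1.11%, 0.828%, 0.880% and 1.04% in the lines (-0.37, SE 0.07, edgeR adjusted p = 2.89e-04). All hearts lay under all lines.

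Glutamate split between its anticodons. Glu-CTC, which reads GAG, took 2.75% to 4.38% in the hearts (median 3.98%) and 1.76% to 1.82% in the lines (1.07, SE 0.11, edgeR adjusted p = 9.55e-07). Glu-TTC, which reads GAA, took 1.58% to 2.87% against 2.22% to 2.58% and was not called (-0.01, SE 0.14, edgeR adjusted p = 0.931). Lysine split the other way: Lys-TTT was higher (0.46, SE 0.11, edgeR adjusted p = 0.00153), with Ctrl_1 at 7.04% inside the hearts' range of 6.19% to 8.66%, while Lys-CTT was not called (0.09, SE 0.06, edgeR adjusted p = 0.155).

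Serine, uncalled as a family, held the lowest and the highest log2 difference among the 48 anticodons. Ser-CGA, which reads UCG, took 0.453% to 0.501% in the hearts and 0.713%, 1.04%, 1.01% and 0.908% in the lines (-0.94, SE 0.08, edgeR adjusted p = 1.07e-07). Ser-AGA took 1.39% to 1.68% against 1.16% to 1.33% (0.30, SE 0.06, edgeR adjusted p = 5.19e-04). Ser-GGA was at 0.0146% or less in every heart and 0.00554% or less in every line, with a log2 difference of 1.48. It lies under the share of 0.1% set for naming and is given only because it is the highest of the 48.

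Arginine anticodons were lower but for Arg-TCT. Arg-CCT, which reads AGG, took 0.951% to 1.16% in the hearts and 1.78% to 2.01% in the lines (-0.86, SE 0.07, edgeR adjusted p = 3.68e-08), and Arg-CCG 1.01% to 1.17% against 1.33% in Ctrl_1 and 1.85% to 2.15% in the Cl lines (-0.76, SE 0.09, edgeR adjusted p = 5.14e-06). Arg-TCG (-0.43, SE 0.06) was lower too. Arg-TCT was higher by 0.27 (SE 0.11, edgeR adjusted p = 0.0434), a call lost without any 1 of 8 of the 12 units (Ctrl_1, Cl_1, Cl_3 and mice 5, 6, 14, 18 and 25).

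Threonine also split. Thr-TGT (0.51, SE 0.09) and Thr-AGT (0.50, SE 0.09) were higher and Thr-CGT was lower (-0.46, SE 0.08, edgeR adjusted p = 9.64e-05), each without overlap. Val-AAC (-0.69, SE 0.14), Val-TAC (-0.68, SE 0.09), Pro-CGG (-0.57, SE 0.07) and Gly-TCC (-0.51, SE 0.07) complete the anticodons with the widest gaps downward. Val-AAC, at 0.733% to 1.27% in the hearts and 1.60% to 1.84% in the lines, was -0.48 for AAV9-GFP against Ctrl_1 (edgeR adjusted p = 0.123). Grouped by the first anticodon base, A had 3 higher and 2 lower of 8, C 4 and 8 of 16, G 3 and 2 of 9, and T 5 and 7 of 15.

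**Figure D2:**
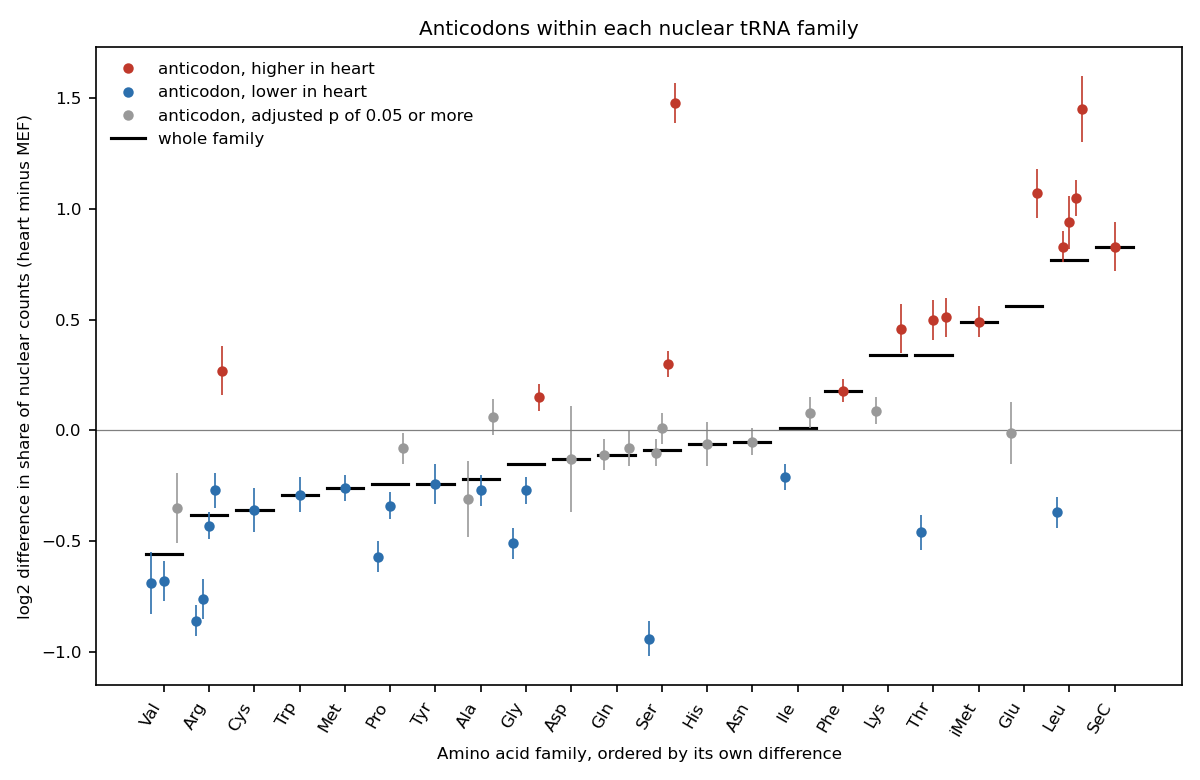
Log2 difference (heart minus MEF, bars SE) of each nuclear anticodon within its amino acid family, with black lines for the whole family, ordered by the family value. The Leu column holds 4 points above 0 and Leu-TAA at -0.37 below it, and Ser runs from -0.94 to 1.48 around a family value of -0.09.

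At the level of single transcripts the tissues lay further apart. Of 263 nuclear rows present under the same name in both tables, 158 passed the filter on low counts; the other 105, of which 43 had no count, summed to at most 0.0147% of nuclear counts. Of the 158, 41 were higher and 52 lower in heart (58.9% called), and 45 of the called ones differed by more than 2-fold, 21 upward and 24 downward. The median absolute log2 difference was 0.67 over transcripts, 0.33 over anticodons and 0.25 over families. With the 2 10X hearts left out, 41 were higher and 75 lower of 159. DESeq2, which also used its own size factors in place of the nuclear total, called 41 higher and 36 lower. The median over transcripts was -0.10 in edgeR and 0.03 in DESeq2, so tool and scaling changed together. By family, 11 leucine transcripts were higher and 1 lower of 15, 2 arginine transcripts higher and 11 lower of 19, and 0 valine transcripts higher and 5 lower of 9; differences between families in these counts were not tested.

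With all 8 hearts, tRNA-Leu-CAA-1 had the widest gap of the 158; without the 10X hearts, and for AAV9-GFP against Ctrl_1, tRNA-Val-AAC-4 had a wider one (-5.81 and -5.64). So did tRNA-Cys-GCA-10, named after its values were seen, but it had no count in 5 of the 6 other hearts, and its fitted value is not given. tRNA-Leu-CAA-1 took 0.143% (lowest), 0.187% (median) and 0.264% (highest) of nuclear counts in the hearts, and 0.00392%, 0.00522%, 0.00482% and 0.00575% in Ctrl_1, Cl_1, Cl_2 and Cl_3. All hearts lay far above all lines. The log2 difference was 5.29 (SE 0.25, edgeR adjusted p = 4.48e-09), a 39.2-fold higher share, and 5.22 without the 10X hearts. Its sisters tRNA-Leu-CAA-2 (1.26, SE 0.16) and tRNA-Leu-CAA-3 (1.26, SE 0.20) were each 2.40-fold higher.

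Another leucine isodecoder and isodecoders of isoleucine and glycine were also much higher in heart. tRNA-Ile-AAT-2 took 0.321% to 0.388% in the hearts and 0.0223% to 0.0286% in the lines (3.73, SE 0.12, 13.3-fold, edgeR adjusted p = 7.34e-11). The whole Ile-AAT anticodon was not called (0.08, SE 0.07, edgeR adjusted p = 0.297), and tRNA-Ile-AAT-1 held 89.8% to 93.6% of it in the hearts and 99.0% to 99.3% in the lines. tRNA-Leu-TAG-2 took 0.191% to 0.273% against 0.0143% to 0.0255% (3.51, SE 0.20, 11.4-fold, edgeR adjusted p = 2.64e-08). tRNA-Gly-GCC-1 took 0.687% in mouse 5 and up to 1.47% in mouse 17, against 0.104% to 0.183% in the lines (2.99, SE 0.23, 7.93-fold, edgeR adjusted p = 3.10e-07). These 3 kept their size without the 10X hearts, at 3.70, 3.51 and 2.84.

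The remaining named transcripts higher in heart differed 2-fold to 3-fold. They were tRNA-Lys-CTT-2 (1.59, SE 0.09), tRNA-Pro-TGG-1 (1.13, SE 0.15), tRNA-Glu-CTC-1 (1.08, SE 0.12) and tRNA-Thr-AGT-2 (1.07, SE 0.13), none with overlap. tRNA-Glu-CTC-1 was the most abundant of them, at 2.74% to 4.36% in the hearts and 1.76% to 1.80% in the lines, and carries nearly all of Glu-CTC.

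Of the 10 named transcripts lower in heart, 7 were arginine isodecoders, against 11 of all 52 lower and 19 of the 158 tested. Naming required no overlap, which left out tRNA-Ala-AGC-10, tRNA-Val-CAC-3 and tRNA-Val-AAC-2, among others. Without the 10X hearts these were at -4.34, -4.08 and -3.71. tRNA-Arg-CCT-3 took 0.0159% (lowest), 0.0289% (median) and 0.0882% (highest) in the hearts and 0.238%, 0.312%, 0.255% and 0.271% in the lines (-2.90, SE 0.39, 7.46-fold lower, edgeR adjusted p = 3.83e-05). The highest heart was mouse 17, and without the 10X hearts the difference was -3.41. tRNA-Arg-CCT-2 (-2.24, SE 0.31), tRNA-Arg-CCG-2 (-1.89, SE 0.17), tRNA-Arg-TCT-2 (-1.42, SE 0.21), tRNA-Arg-CCT-1 (-1.28, SE 0.17), tRNA-Arg-TCG-4 (-1.11, SE 0.12) and tRNA-Arg-CCG-1 (-0.92, SE 0.28) were lower as well, each without overlap. tRNA-Arg-CCG-1 moved to -1.25 without the 10X hearts. tRNA-Arg-TCT-2 was -0.68 for AAV9-GFP against Ctrl_1, the line with the least of it (0.156%, against 0.273% to 0.334% in the Cl lines).

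tRNA-Ser-CGA-2 (-1.34, SE 0.13) and tRNA-Pro-TGG-2 (-0.95, SE 0.08) were also lower. tRNA-Val-AAC-4 had the lowest value of those named, -3.09 (SE 1.05, edgeR adjusted p = 0.0226), but the hearts were far from alike. It took 0.0626% in mouse 17 and 0.0353% in mouse 18, 0.00143% to 0.00310% in the other 6 hearts, and 0.0978% to 0.142% in the lines. Without the 10X hearts it was 56.1-fold lower (log2 difference -5.81, SE 0.24, edgeR adjusted p = 1.85e-09), and without mice 14, 18 and 25 it was not called (edgeR adjusted p = 0.0618). tRNA-Arg-TCT-4, an isodecoder known from the nervous system, was rare in both tissues, at 0.000565% to 0.00411% in the hearts and 0.00117% to 0.0106% in the lines. Its difference of -1.60 (SE 0.54, edgeR adjusted p = 0.0226) was lost without Cl_2 or Cl_3 and was 0.64 against Ctrl_1 alone.

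**Figure D3:**
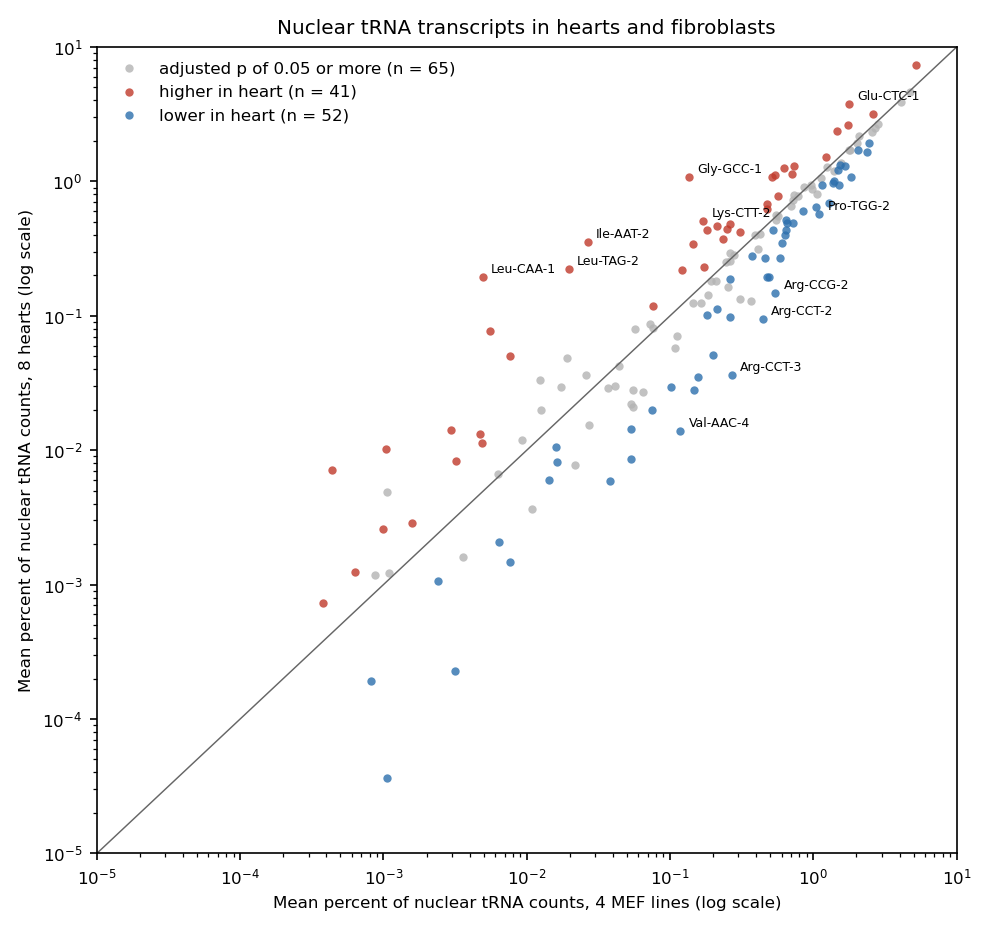
Mean share of nuclear tRNA counts (percent, log scales) of 158 transcripts in 4 MEF lines (x) and 8 hearts (y), with red for 41 higher and blue for 52 lower in heart and a line of equal share. tRNA-Leu-CAA-1, tRNA-Ile-AAT-2 and tRNA-Leu-TAG-2 stand furthest above the line among the labelled points, and the labelled arginine transcripts lie below it.

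To separate a change in an anticodon from a change in its make-up, each isodecoder was tested as a share of its own anticodon. Of 151 isodecoders in 41 anticodons, 37 had a higher and 43 a lower share in heart (53.0% called), and 31 of the 41 anticodons held at least 1 of them. Without the 10X hearts 42 were higher and 71 lower of 152. The leading isodecoder by mean share was the same in both tissues for 35 of the 39 anticodons whose rows all match between the tables. The exceptions were Ser-CGA, Thr-CGT, Arg-ACG and Ala-CGC. In Arg-ACG and Ala-CGC the change of leader was between near-equal shares, with overlap, and 0 isodecoders were called. The leader of Arg-ACG held 47.2% in heart and the other leader 49.0% in MEF. For Ala-CGC the values were 50.7% and 51.8%. Over the 41, the median share of an anticodon's counts that lay on a different isodecoder in heart than in MEF was 8.95 percentage points.

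Arg-CCT showed the largest shift. tRNA-Arg-CCT-4 took 51.4% (lowest), 72.0% (median) and 78.1% (highest) of the anticodon in the hearts and 34.7% to 42.5% in the lines. This was a rise of 31.2 percentage points (log2 difference 0.87, SE 0.10, edgeR adjusted p = 2.16e-05). The lowest hearts were mouse 17 at 51.4% and mouse 18 at 61.2%. As a share of nuclear counts tRNA-Arg-CCT-4 itself was not called (0.01, SE 0.11, edgeR adjusted p = 0.922), while the other 3 isodecoders of Arg-CCT were lower.

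Gly-GCC and Pro-TGG followed, with 28.8 points each. tRNA-Gly-GCC-1 took 22.7% to 45.2% of its anticodon in the hearts (median 33.7%) and 3.49% to 6.86% in the lines, while tRNA-Gly-GCC-2 went from 83.5% to 86.9% in the lines to 49.6% to 70.4% in the hearts. tRNA-Pro-TGG-1 took 39.7% to 48.6% in the hearts and 11.1% to 20.2% in the lines. Its counterpart tRNA-Pro-TGG-2 was lower by the same amount (log2 difference -0.61, SE 0.05, edgeR adjusted p = 6.47e-07). In both anticodons the isodecoder shares of hearts and lines did not overlap. The anticodons as a whole were also called, Gly-GCC higher by 0.15 (SE 0.06, edgeR adjusted p = 0.0257) and Pro-TGG lower at -0.34 (SE 0.06, edgeR adjusted p = 1.47e-04). Gly-GCC as a whole overlapped, at 2.88% to 3.40% in the hearts and 2.67% to 2.97% in the lines. Its call was lost without the 10X hearts (0.13, edgeR adjusted p = 0.0578) and without Cl_3 or Ctrl_1.

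In 2 leucine anticodons, both themselves higher in heart, a minor isodecoder gained share. tRNA-Leu-CAA-1 went from 1.22% to 1.65% of Leu-CAA in the lines to 15.9% to 23.6% in the hearts (3.84, SE 0.17, edgeR adjusted p = 3.84e-09). tRNA-Leu-TAG-2 went from 2.83% to 5.62% of Leu-TAG to 18.7% to 25.1% (2.44, SE 0.19, edgeR adjusted p = 5.70e-07). Neither depended on the 10X hearts (3.77 and 2.41 without them). tRNA-Leu-CAA-4 did: it was at 9.90% in mouse 17 and 6.16% in mouse 18, 0.944% at the lowest heart, and 7.96% to 13.9% in the lines.

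The other 3 of the 8 anticodons with the largest change of a single isodecoder were Arg-CCG, Ser-CGA and Arg-TCT. Arg-TCG lay outside these 8, but summed over its isodecoders 17.0 points moved in it, as in Ser-CGA, and all 4 of its isodecoders were called. tRNA-Arg-CCG-3 rose by 18.6 points (0.41, SE 0.11, edgeR adjusted p = 0.00628), with overlap between mouse 17 at 60.8% and the highest line at 63.1%. tRNA-Ser-CGA-1 rose by 17.0 points, from 38.4% to 44.3% in the lines to 44.7% to 64.2% in the hearts. By mean share it took the lead from tRNA-Ser-CGA-2, which still led in mouse 17 (51.5% against 44.7%). tRNA-Arg-TCT-1 rose by 16.5 points (0.39, SE 0.07, edgeR adjusted p = 5.76e-04), from 51.7% to 55.6% in the lines to 57.6% to 76.8% in the hearts. In all 3 the 10X hearts were the hearts nearest the lines.

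**Figure D4:**
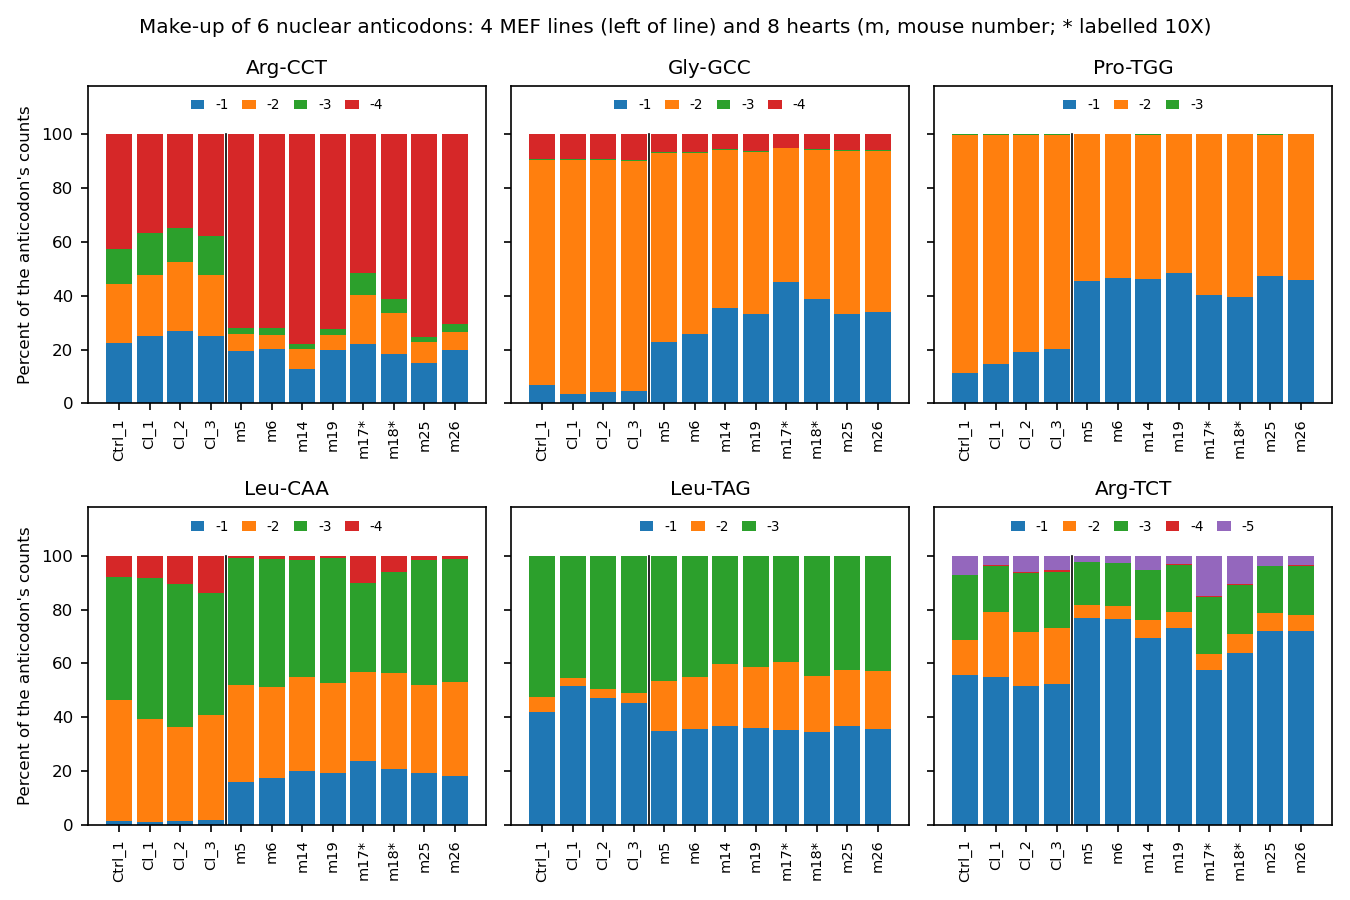
Make-up of 6 nuclear anticodons in 4 MEF lines and 8 hearts: each bar is a line or heart and each colour an isodecoder, as a percent of the anticodon's counts. The first isodecoder of Gly-GCC, Pro-TGG, Leu-CAA and the second of Leu-TAG are wider in all hearts, and mice 17 and 18 keep more of Arg-CCT-2 and -3, Leu-CAA-4 and Arg-TCT-5 than the other hearts.

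Without the 10X hearts, 44 transcripts were more than 2-fold lower and 21 more than 2-fold higher in heart than in MEF. In 37 of the 44, both 10X hearts lay above all 6 other hearts, and in 0 were both below; over all 159 transcripts the counts were 60 and 15. The median ratio of the 10X mean to the MEF mean was 0.759 for the 44, against 0.169 for the other 6 hearts. For the 21 higher transcripts the 2 ratios were 3.22 and 2.73. Both sets were chosen by the values of the 6 other hearts against the lines, so a gap between those hearts and the 10X hearts on them is a description and no test. The 44 transcripts summed to 6.22% of nuclear counts in mouse 17 and 5.01% in mouse 18, with medians that sum to 2.23% in the other hearts and means that sum to 7.54% in the lines. Both 10X hearts received AAV9-DdCBE, and X label, treatment and any handling that goes with the label cannot be told apart here.

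Examples show how wide this gap was. tRNA-Ala-AGC-5 took 0.484% in mouse 17 and 0.385% in mouse 18, a median of 0.0195% in the other 6 hearts, and a mean of 0.366% in the lines. tRNA-Val-AAC-2 took 0.194%, 0.120%, 0.0146% and 0.200% in the same order. tRNA-Lys-TTT-2 took 0.523%, 0.394%, 0.0564% and 0.252%, so that both 10X hearts exceeded the mean of the lines. The lines ran from 0.119% to 0.477%, and Cl_3, the highest, lay above mouse 18. These 3 were picked as illustrations once their values were known. Over all 159 transcripts tested the median ratio of the 10X mean to the mean of the other hearts was 1.08, and the ratio was above 5 for 28.

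**Figure D5:**
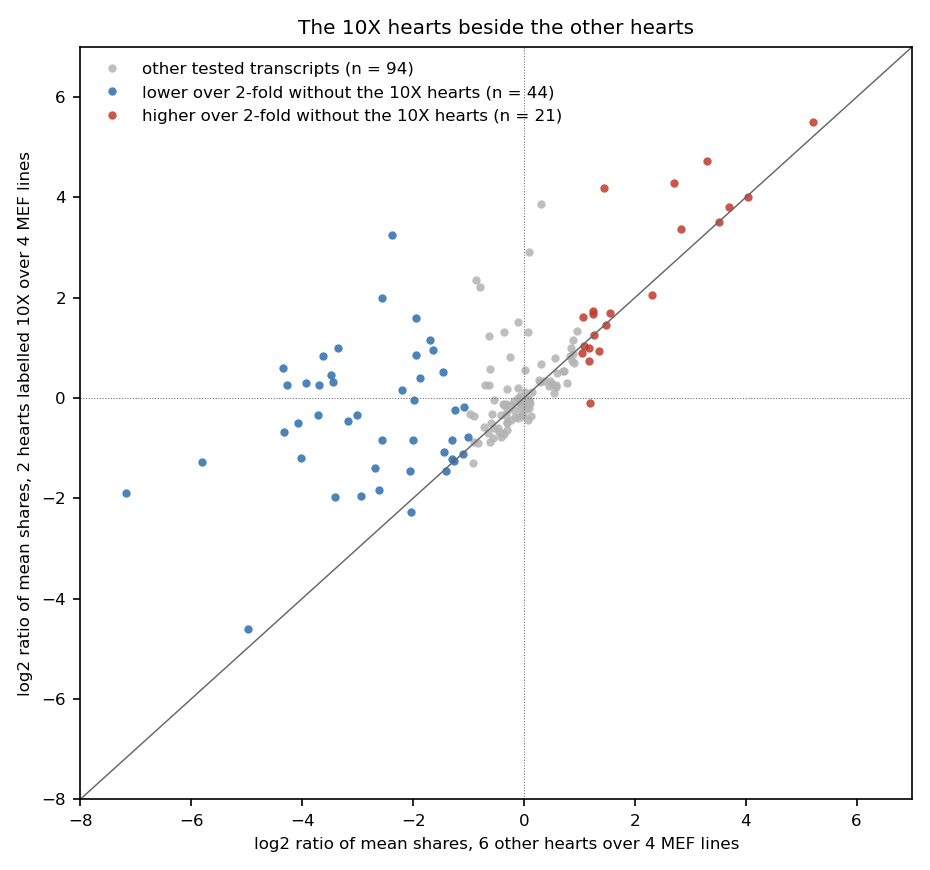
Log2 ratio of mean shares to the MEF lines for the 6 other hearts (x) and the 2 hearts labelled 10X (y), per transcript with a count in each group; the solid line marks equal ratios. The 44 transcripts lower in the other hearts (blue) lie mostly above the line, many near 0 on the vertical axis, while the 21 higher ones (red) lie close to it.

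The hearts also differed among themselves, and for several anticodons the 3 shallowest libraries lay lowest. For 8 of 48 anticodons the highest heart exceeded the lowest by more than 1.5 times, and in 7 of these 8 the 3 lowest hearts were mice 14, 18 and 25, the 3 shallowest libraries. The 7 were Asp-GTC, Glu-CTC, Glu-TTC, Val-AAC, Val-CAC, Leu-CAA and Leu-CAG. Asp-GTC took 1.55% in mouse 14, 1.69% in mouse 25, 2.39% in mouse 18 and 3.69% to 4.03% in the other 5 hearts, against 3.14% to 3.69% in the lines. The 5 deeper hearts lay close together. By nuclear counts alone the same 3 hearts were the shallowest. Mouse 17, with 1218078 nuclear counts, was close to mouse 18 with 1149667, yet took 4.02% of Asp-GTC. The part of depth in these values was not tested.

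Leaving out the 3 shallow hearts, a step chosen after the data were seen, changed several calls. With all hearts the aspartate family was not called (-0.13, SE 0.25, edgeR adjusted p = 0.653), and without these 3 it was higher in heart by 0.18 (edgeR adjusted p = 0.00891). Glutamate moved from 0.56 to 0.71 and valine from -0.56 to -0.42, and both stayed called. Alanine (-0.31, edgeR adjusted p = 0.00169) and glutamine (-0.19, edgeR adjusted p = 8.96e-04) became called, and tyrosine was lost (-0.16, edgeR adjusted p = 0.0815). Of mitochondrial tRNAs, His (-0.23) and Asp (0.27) were lost (edgeR adjusted p = 0.0844 each). Of the 11 mitochondrial tRNAs whose highest heart exceeded the lowest by more than 1.5 times, the same 3 hearts were the lowest for 4, Glu, Asn, Lys and Arg. Mitochondrial tRNA-Lys took 3.74% in mouse 14, 4.38% in mouse 25 and 5.34% in mouse 18, against 5.75% to 7.39% in the other hearts.

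The distance between 2 pools can be put as the percent of counts that would have to move to make them equal. Over nuclear transcripts, with rows merged so that both tables match, heart and line were 14.4% to 18.9% apart (median 16.9%), hearts 2.11% to 15.1% (median 8.81%) and lines 4.09% to 8.35% (median 6.66%). Over anticodons the medians were 12.7%, 6.19% and 4.25%, and over families 10.8%, 5.41% and 2.91%. Over mitochondrial tRNAs they were 16.9%, 8.69% and 7.96%. There, the 2 lines furthest apart (14.8%) were further apart than the closest heart and line (12.8%). The 2 hearts furthest apart exceeded the closest heart and line at every level. The values were 15.1% against 14.4% over transcripts and 11.6% against 10.8% over anticodons. Over families they were 9.32% against 7.61%, and over mitochondrial tRNAs 13.6% against 12.8%. These pairs share samples, so the distances are a description.

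For the same amino acid, the mitochondrial and the nuclear difference bore little relation to each other. Across the 22 mitochondrial tRNAs set against the nuclear family of their amino acid, Pearson's r was 0.10, given as a description since all points come from the same 12 units. Leu-TAG of mitochondria (1.41) and nuclear leucine (0.77) were both higher, while mitochondrial Leu-TAA was lower (-0.29). Glutamate was higher in the nuclear pool (0.56) and lower in the mitochondrial pool (-1.06). Glycine was higher in the mitochondrial pool (1.18) and lower in the nuclear pool (-0.15).

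The narrower contrast of 4 AAV9-GFP hearts with 2 passages of Ctrl_1 shares its samples with the full comparison and is given as a check. It called 10 mitochondrial tRNAs (6 higher, 4 lower), 11 families (3 and 8), 30 anticodons (13 and 17) and 105 of 159 transcripts (40 and 65). It holds none of the 10X hearts. tRNA-Leu-CAA-1 was at 5.56, tRNA-Ile-AAT-2 at 3.91, tRNA-Leu-TAG-2 at 3.13 and tRNA-Gly-GCC-1 at 2.30 in it, and selenocysteine tRNA at 1.17 (edgeR adjusted p = 4.89e-06). The passages of a line are not separate lines, so its p-values measure the spread between passages and mice only.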

How the data were processed

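The authors deposited raw counts of reads per tRNA, whole numbers with no normalization, in a separate table for each tissue. The mim-tRNAseq libraries were made after an acidic extraction that keeps amino acids on tRNA ends, followed by oxidation and beta-elimination, per the labels' protocols. Per the submitters' processing notes, cutadapt 3.5 and build mm39 were used. How reads shared by near-identical isodecoders were assigned is not given in the sources used here, and isodecoder values depend on it. All 16 columns were matched by title, and 0 columns of samples were left unused. Rows were matched by identical name: 22 mitochondrial tRNAs and 263 nuclear rows. The MEF rows tRNA-Thr-AGT-1/3 and tRNA-Trp-CCA-3/4 are 4 rows in the hearts and entered sums and a merged alternative only. The tRX rows (26 to 193 counts per library) were left out.

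Passages of a line were summed, since they are not separate lines. edgeR 4.0.16 (R 4.3.3; glmQLFit and glmQLFTest after filterByExpr by tissue, at 10 counts per unit and 15 in all) was run with the mitochondrial or nuclear total as library size and no further scaling. For isodecoder shares the anticodon's count was the offset. P-values were adjusted by Benjamini-Hochberg within each level, with a threshold of 0.05. The mitochondrial share was compared by an exact permutation test (scipy 1.17.1).

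Alternatives were TMM, DESeq2 1.42.0, no filter, 16 separate libraries, AAV9-GFP against Ctrl_1, the 10X hearts or each unit left out, merged rows and a replicate block. All mitochondrial tRNAs and families could be named, and tRNA-Arg-TCT-4 always. Of anticodons and transcripts, up to 10 per direction were named by largest log2 difference among those called, without overlap and at 0.1% or more in either tissue. Of isodecoder shares, the 8 anticodons with the largest change of a row were named. The members, lists and rules were chosen with earlier results of these data known. The fit was tested on simulated counts for 158 transcripts, of which 40 rarer ones were changed: it found 28.0% of those changed 2-fold and 62.0% of those changed 4-fold, and 2.96% of its calls were false.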

Additional observations from a re-analysis of the deposited data

Results flagged for a closer look

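Among the 8 hearts and among the 4 lines, a value was singled out when its gap to the nearest other was large for the range of its group (Dixon's test); chance singles out about 1 in 20 groups. Mouse 17 had a mitochondrial share of 59.9%, and Ctrl_1 had 3.55%. Of mitochondrial tRNAs, His was at 5.52% in Cl_3 and Pro at 3.07% in mouse 19. The valine family was at 4.67% in Cl_1. Of anticodons, Thr-AGT was at 2.66% in Cl_2, Val-AAC at 1.60% in Ctrl_1 and Arg-TCG at 1.96% in mouse 14. tRNA-Ile-AAT-2 was at 0.0223% in Ctrl_1, and tRNA-Arg-CCG-1 at 0.228% in Cl_3. tRNA-Arg-CCT-3 was at 0.0882% in mouse 17, and tRNA-Pro-TGG-2 at 0.688% in mouse 18; both mice carry the 10X label. tRNA-Leu-CAA-1 was 1.65% of its anticodon in Cl_3. Of 186 groups examined, 13 were singled out this way. The tRX rows, which no comparison used, held up to 193 counts in a library.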

How the results depend on the processing

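For each comparison the number of calls stayed within 1.5 times its main value in every alternative run. The mitochondrial share kept its direction, and AAV9-GFP against Ctrl_1 (36.7 points, exact permutation p = 0.133) fell short of the threshold by design. Leaving out each of the 12 units in turn gave 37.8 to 41.0 points for the mitochondrial share, 11 to 13 mitochondrial tRNAs, 14 to 17 families, 31 to 35 anticodons, 77 to 98 transcripts and 69 to 97 isodecoder shares. In AAV9-GFP against Ctrl_1, mt-tRNA-Glu (0.16), mt-tRNA-Ser-TGA (0.02) and tryptophan tRNA (0.02) changed sign. Aspartate tRNA changed sign (0.18) without the 3 shallowest hearts; the cause was not tested. Replicate numbers in the titles count passages or mice and do not pair a heart with a line; with the replicate block over 16 libraries, 97 transcripts and 36 anticodons were called. Of 1800 values of named tRNAs under alternatives, 1752 kept direction and side of the threshold. Depth limits the rarest isodecoders, and read assignment among near-identical rows could not be varied here.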

Other observations

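Anticodons of the form CGN read codons that end in CG. Of the 4, Ser-CGA, Pro-CGG and Thr-CGT were lower in heart and Ala-CGC was not called (0.06, SE 0.08, edgeR adjusted p = 0.549). The 3 anticodons for arginine codons that begin with CG, Arg-ACG (-0.27), Arg-CCG (-0.76) and Arg-TCG (-0.43), were lower as well. Together, 0 of these 7 were higher and 6 were lower, with a median log2 difference of -0.46, against 19 lower of all 48. The median was -0.39 under TMM and -0.35 for AAV9-GFP against Ctrl_1. They summed to 8.41% to 10.3% of nuclear counts in the hearts (median 8.76%) and 11.2%, 12.3%, 12.1% and 11.8% in Ctrl_1, Cl_1, Cl_2 and Cl_3, without overlap. The set was chosen after its values were seen and overlaps with arginine, so no test is given and nothing particular to it is claimed.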
